A study of Vitis vinifera with 6 samples.

Results

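The genes described here make or cleave carotenoids, or clear the carotenoid-derived hormone abscisic acid (ABA), and were measured in grapevine (Vitis vinifera) leaves. They comprise 8 loci out of 34369 probes other than controls. The loci were chosen by locus name for their place in the pathway, with earlier results of these data known. They are the phytoene synthases PSY1 (VIT_04s0079g00680) and PSY2 (VIT_12s0028g00960), the 9-cis-epoxycarotenoid dioxygenases VIT_19s0093g00550 (NCED_19s) and VIT_10s0003g03750 (NCED_10s), the carotenoid cleavage dioxygenases CCD4a (VIT_02s0087g00910) and CCD4b (VIT_02s0087g00930), and the ABA hydroxylases VIT_02s0087g00710 (ABA8H_02s) and VIT_18s0001g10500 (ABA8H_18s). Each had 1 probe with 1 spot per array. The files give locus names only, so the enzyme names come from knowledge of published grapevine nomenclature. By the convention of these names, CCD4a, CCD4b and ABA8H_02s lie on chromosome 2, and the others on chromosomes 4, 12, 19, 10 and 18. Coordinates are not used here.

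Phytoene synthase makes phytoene, the first carotenoid of plastids, and sets how much enters the pathway. The epoxycarotenoid dioxygenases (NCED enzymes) cut epoxidised carotenoids to xanthoxin, the precursor of ABA, and this cut is generally the regulated step of ABA synthesis. CCD4 enzymes cut other carotenoids, which bleaches the pigment and releases volatile apocarotenoids. ABA 8'-hydroxylases, cytochrome P450 enzymes of the CYP707A family, oxidise ABA and start its breakdown to phaseic acid. In grapevine leaves ABA closes stomata under water deficit, and in berries its level climbs as ripening starts.

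The study compared leaves labelled overexpression of CARPO, a NAC transcription factor that the title ties to organ maturation and ripening, with control leaves of the same cultivar, Syrah (clone BVRC12), and asks here what that does to the pathway. Both groups were fully expanded leaves of greenhouse plants regenerated from anther callus, with 3 samples per group and 1 array (Cy3) per sample. How many transgenic lines were sampled, which promoter drives the transgene and what the control plants carry are not given in the sources used here. The labels call the samples biological replicates and do not say whether each came from its own plant or line, so p-values measure the spread between these samples, which may be technical. Leaf markers were not checked, because the locus names could not be matched to gene names.

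The array's 75th percentile of signal ranged from 668 to 1234 in the labelled overexpression group and from 818 to 1036 in controls, and 68.4% to 74.5% of an array's probes exceeded background clearly. Labelled overexpression replicate 3 stood apart. The extraction software marked 2103 of its spots (6.12%) as outliers, against 0.04% to 1.77% on the other arrays. It also had the lowest share of probes clearly above background (68.4%). Over 18929 bright probes its Pearson's r with the other arrays was 0.810 to 0.854, below the 0.883 to 0.974 of pairs without it, and a slide and a scan of its own were recorded for it. The probe taken as CARPO (VIT_08s0007g07670, a locus known from outside the files) had a signal of 10.1, 15.1 and 271 in labelled overexpression replicates 1, 2 and 3, against 12.4, 50.4 and 25.3 in controls. It was thus high in replicate 3 alone, so this probe did not bear out the label of replicates 1 and 2. Whether the probe binds the transcript of the transgene was not tested, since probe sequences are not used here. The group is therefore called labelled overexpression throughout, and every direction is that of the label. Differences of the 8 genes and of the named pathway loci are given with and without replicate 3, and by scan. Scan 1 held replicate 1 of each group, scan 2 held labelled overexpression replicate 2 with control replicates 2 and 3, and scan 3 held labelled overexpression replicate 3 only.

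None of the 8 genes (0) passed limma at a Benjamini-Hochberg adjusted p under 0.05 over the 23752 probes tested, where 0.08% of all probes did. At an unadjusted p under 0.05 there were 3 of the 8 (CCD4b, NCED_19s and ABA8H_18s), where the share over all probes tested was 15.1%. The groups did not overlap at 4 of the 8, with CCD4b higher and PSY1, NCED_19s and ABA8H_18s lower in the labelled overexpression leaves. The share of probes without overlap was 24.2% over all probes with 6 usable spots (10.5% higher and 13.7% lower). The fitted difference was positive for 2 genes, both CCD4 genes, and negative for 6, with a median of -0.33 on the log2 scale, against 0.0038 over all probes tested. The extraction software marked each of the 8 probes as well above background on every one of the 6 arrays. It marked none of their spots as saturated or an outlier, so every value of these 8 genes below is a measured one. In these whole-leaf samples, fewer cells of a type and less RNA per cell cannot be told apart.

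**Figure D1:**
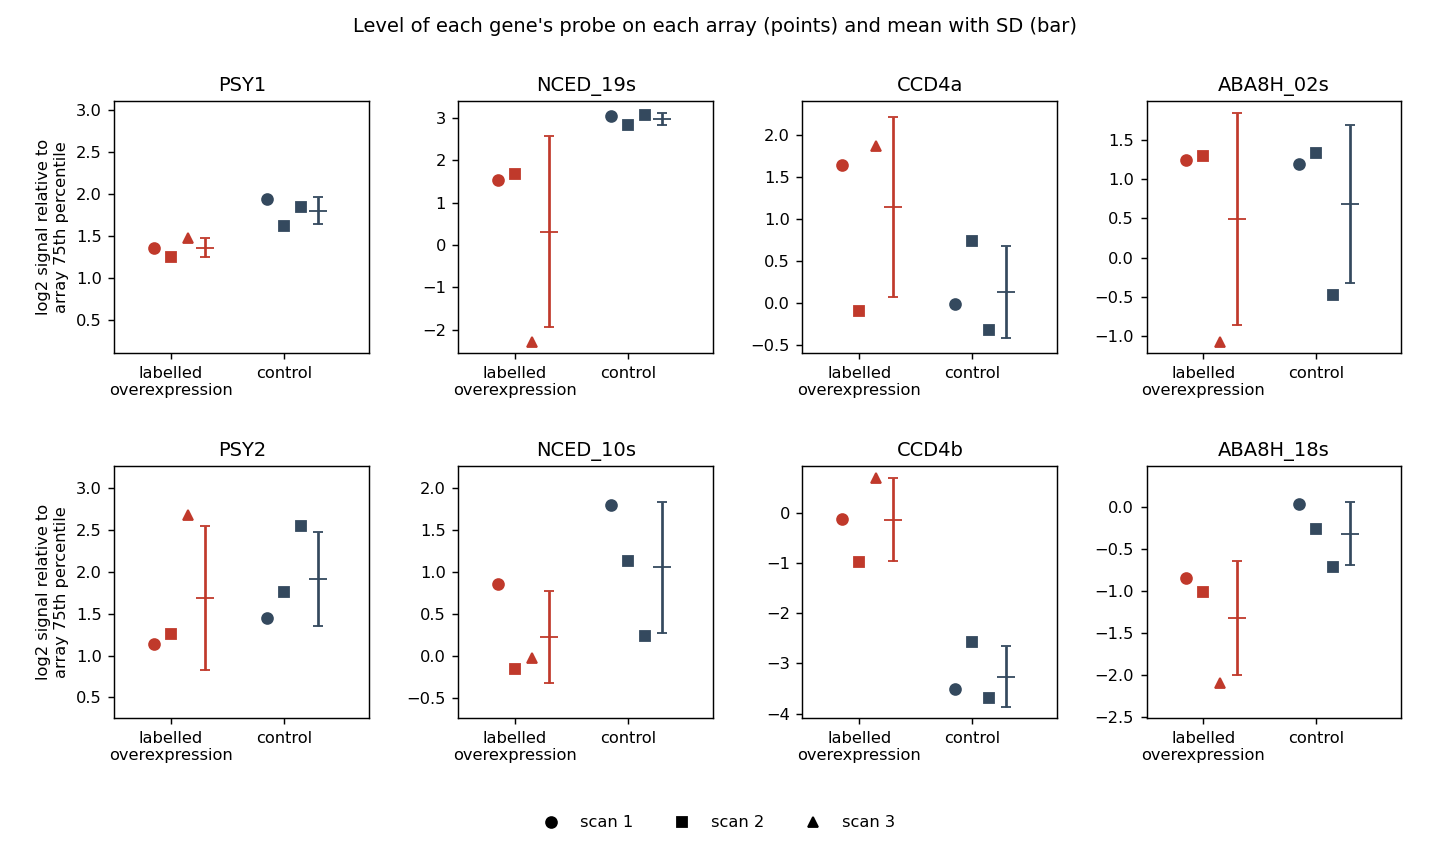
Log2 signal relative to the array's 75th percentile (vertical axes, each with its own range) of the 8 genes' probes on each array, labelled overexpression left and control right; points are arrays, shapes mark the scan, and bars give the mean and SD of 3 arrays. The groups do not overlap for PSY1, NCED_19s, CCD4b and ABA8H_18s, and replicate 3 of the labelled overexpression group (triangle) lies far below the rest at NCED_19s.

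The gene with the smallest p was CCD4b, whose family is known from chrysanthemum petals and peach fruit, where CCD4 activity removes carotenoids. Its signal was 617, 626 and 1483 in labelled overexpression replicates 1, 2 and 3, against 79.7, 137 and 79.7 in control replicates 1, 2 and 3. Every labelled overexpression array exceeded every control array, by a gap of 1.60 on the log2 scale after scaling. Relative to the 75th percentile, the log2 level averaged -0.14 ± 0.83 (SD, n = 3) in labelled overexpression leaves and -3.26 ± 0.60 (SD, n = 3) in controls. The limma difference was 3.13 (SE 0.51, 95% interval 1.88 to 4.37), an 8.74-fold higher level, with an unadjusted p of 0.00078 and an adjusted p of 0.0965. It therefore missed the threshold over all probes, although only 92 of the 23752 probes had a difference as high. The exact two-sided permutation test gave p = 0.1, the smallest that 3 against 3 arrays allow. The difference was 3.40 in scan 1 and 2.16 in scan 2. Without the array that stands apart, replicates 1 and 2 were 6.58-fold above controls, a log2 difference of 2.72 with an adjusted p of 0.0747. With normexp background correction (offset 50), which compresses dim signals, the limma difference over all arrays was 2.19 (adjusted p 0.491).

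CCD4a, whose locus name places it close to CCD4b, had a signal of 2100, 1162 and 3391 in labelled overexpression replicates 1, 2 and 3, against 904, 1363 and 827 in controls. Replicates 1 and 3 were above all controls, while replicate 2 lay within their range. By limma the groups differed by 1.01 (SE 0.59, 95% interval -0.42 to 2.45, adjusted p 0.476). It was 1.66 in scan 1 and -0.29 in scan 2, so the scans did not share a direction. Single arrays moved it by over 1.5 times, to 0.65 without labelled overexpression replicate 3 (adjusted p 0.611) and to 1.63 without replicate 2 (adjusted p 0.120).

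Because scaling cancels when 2 probes of one array are set against each other, the signal of CCD4b minus that of CCD4a was also compared between groups on the log2 scale. It was -1.77, -0.89 and -1.19 in labelled overexpression replicates 1, 2 and 3, against -3.50, -3.31 and -3.38 in controls. The 3 controls were within a narrow band and all lay below the labelled overexpression arrays. Such pairs were added after seeing the data. Of all single probes with 6 usable spots, 24.2% did not overlap, and no such share was computed for pairs. The means were -1.28 ± 0.44 in labelled overexpression leaves and -3.40 ± 0.10 in controls (SD, n = 3 each), so CCD4b differed by 2.11 more than CCD4a, a 4.33-fold shift. The shift was 1.74 in scan 1 and 2.45 in scan 2, and 2.07 without labelled overexpression replicate 3. The exact two-sided permutation test gave p = 0.1, the smallest possible, and 0.4 after adjustment over the 4 such pairs of related genes. With normexp background correction (offset 50) the shift was smaller, at 1.29. Probe sequences are not used here, so whether the probe of one gene also binds the transcript of the other was not tested.

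**Figure D2:**
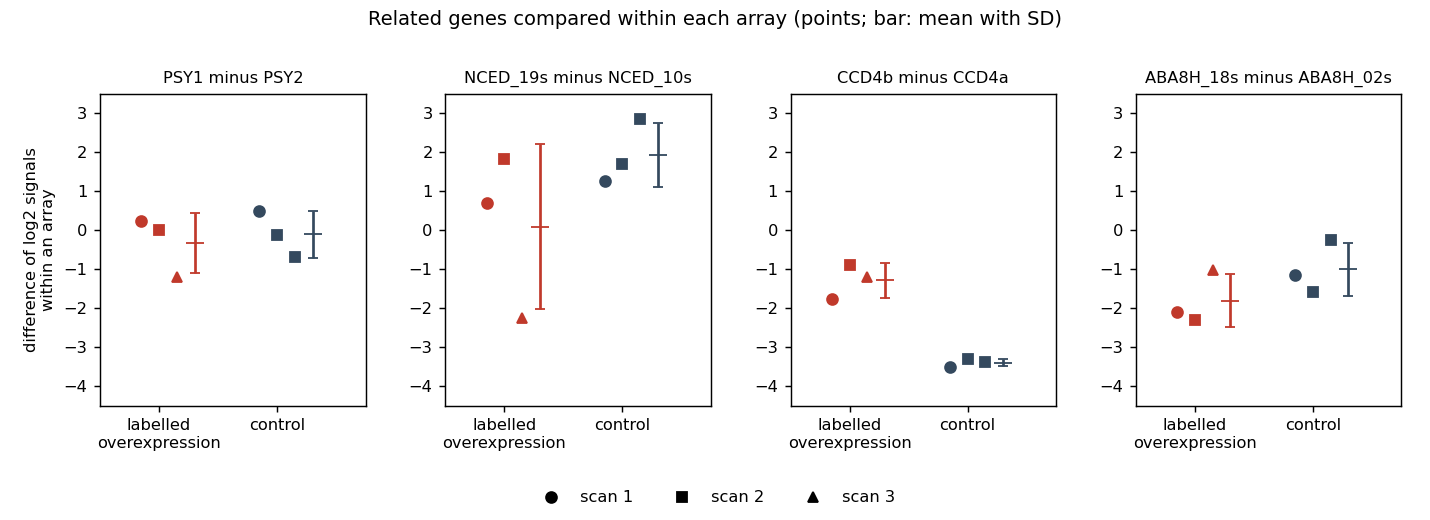
Difference of log2 signals between related genes within each array (vertical axis, shared by the 4 panels), labelled overexpression left and control right; points are arrays, shapes mark the scan, and bars give the mean and SD of 3 arrays. The groups separate for CCD4b minus CCD4a, at -1.28 against -3.40 on average, and overlap for the other pairs. The pairs were added after seeing the data.

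Of the NCED genes, which carry the step that commits carotenoids to ABA, NCED_19s (VIT_19s0093g00550) showed the larger difference. Its signal was 1948, 3949 and 190 in labelled overexpression replicates 1, 2 and 3, against 7494, 5781 and 8741 in control replicates 1, 2 and 3. All 3 labelled overexpression arrays were below all controls, and the controls were close to each other. On the scaled log2 axis the mean was 0.31 ± 2.25 in labelled overexpression leaves and 2.98 ± 0.14 in controls (SD, n = 3 each). Limma gave a difference of -2.67 (SE 1.06, 95% interval -5.25 to -0.08), with an unadjusted p of 0.0449, an adjusted p of 0.320 and an exact permutation p of 0.1.

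The size of this difference rested on labelled overexpression replicate 3, whose NCED_19s level was 38.3-fold below the control mean. Over all arrays the level was 6.34-fold lower in labelled overexpression leaves, and without replicate 3 it was 2.58-fold lower, a log2 difference of -1.37 with an adjusted p of 0.0667. Replicates 1 and 2, at scaled log2 levels of 1.54 and 1.68, were close to each other. The difference was -1.50 in scan 1 and -1.27 in scan 2. The unadjusted p was 0.00068 without replicate 3 and 0.0449 with it.

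NCED_10s (VIT_10s0003g03750) had a signal of 1203, 1108 and 908 in labelled overexpression replicates 1, 2 and 3, against 3150, 1785 and 1223 in controls. After scaling the groups overlapped, because labelled overexpression replicate 1 (0.85) lay above control replicate 3 (0.24). The fitted difference was -0.83 (SE 0.48, 95% interval -1.99 to 0.33, adjusted p 0.472), and it was -0.94 in scan 1, -0.84 in scan 2 and -0.70 without labelled overexpression replicate 3. Leaving out a control moved it to -1.23 without control replicate 3 (adjusted p 0.525) and to -0.46 without control replicate 1 (adjusted p 0.739). Within arrays, NCED_19s minus NCED_10s was 0.70, 1.83 and -2.26 in labelled overexpression replicates 1, 2 and 3, against 1.25, 1.70 and 2.84 in controls, which overlap (exact permutation p = 0.3). An unequal change of the 2 NCED genes was thus not shown.

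**Figure D3:**
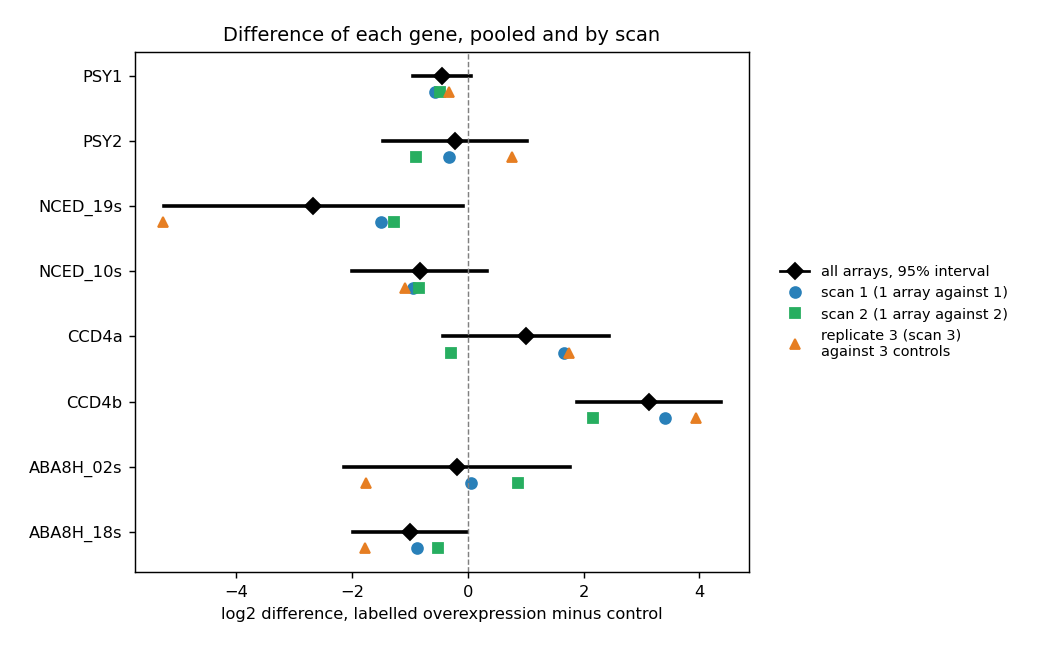
Log2 difference, labelled overexpression minus control, of each gene (horizontal axis); diamonds with lines are the limma estimate over all arrays with its 95% interval, circles the difference in scan 1, squares that in scan 2, and triangles labelled overexpression replicate 3 minus the mean of the 3 controls. For NCED_19s the triangle lies at -5.26, far from the scan values of -1.50 and -1.27, while for CCD4b all points lie above 2.

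The ABA hydroxylases, which remove the hormone, are described in turn. ABA8H_18s (VIT_18s0001g10500) had a signal of 370, 612 and 216 in labelled overexpression replicates 1, 2 and 3, against 928, 681 and 627 in controls. The groups did not overlap, but the gap between the closest arrays was only 0.13 on the scaled log2 axis. The mean was -1.32 ± 0.68 in labelled overexpression leaves and -0.32 ± 0.38 in controls (SD, n = 3 each). Limma put the difference at -1.0 (SE 0.41, 95% interval -1.99 to -0.01). The unadjusted p was 0.0477, the adjusted p 0.326 and the exact permutation p 0.1. The difference was -0.88 in scan 1, -0.52 in scan 2 and -0.61 without labelled overexpression replicate 3 (adjusted p 0.314).

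ABA8H_02s (VIT_02s0087g00710) had a signal of 1587, 3024 and 440 in labelled overexpression replicates 1, 2 and 3, against 2077, 2051 and 747 in controls. One array of each group, replicate 3 in both, was well below the rest of its group, and the groups overlapped on the scaled axis. For this gene limma gave -0.19 (SE 0.80, 95% interval -2.14 to 1.76, adjusted p 0.931), with 0.06 in scan 1, 0.87 in scan 2 and 0.59 without labelled overexpression replicate 3. The interval leaves room for a difference of over 3-fold in either direction, so these arrays do not settle whether this hydroxylase changed. Within arrays, ABA8H_18s minus ABA8H_02s overlapped between groups, with means of -1.81 ± 0.68 in labelled overexpression leaves and -1.0 ± 0.68 in controls (SD, n = 3 each; exact permutation p = 0.3). An unequal change of the 2 hydroxylases was thus not shown.

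The phytoene synthases stand at the entry of the pathway. PSY1 had a signal of 1722, 2939 and 2569 in labelled overexpression replicates 1, 2 and 3, against 3493, 2524 and 3718 in control replicates 1, 2 and 3. On this raw scale the groups overlapped, whereas after scaling the labelled overexpression arrays (1.37, 1.25 and 1.48) were all below the controls (1.94, 1.63 and 1.84). The fitted difference was -0.44 (SE 0.21, 95% interval -0.94 to 0.06, adjusted p 0.387), a 1.35-fold lower level. It was -0.57 in scan 1, -0.48 in scan 2 and -0.49 without labelled overexpression replicate 3. Its interval was the narrowest of the 8.

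PSY2 had a signal of 1463, 2947 and 5900 in labelled overexpression replicates 1, 2 and 3, against 2483, 2766 and 6022 in controls. Labelled overexpression replicate 3 and control replicate 3 were both high, at scaled log2 levels of 2.68 and 2.54, and the other arrays lay between 1.13 and 1.76. By limma PSY2 differed by -0.23 (SE 0.51, 95% interval -1.47 to 1.02, adjusted p 0.862), and by -0.72 without labelled overexpression replicate 3. It was -0.32 in scan 1 and -0.89 in scan 2, and the interval does not settle its size or direction. Within arrays, PSY1 minus PSY2 averaged -0.32 ± 0.77 in labelled overexpression leaves and -0.11 ± 0.59 in controls (SD, n = 3 each; exact permutation p = 0.7).

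A list of 20 further loci, placed in carotenoid synthesis, xanthophyll conversion and carotenoid cleavage by published nomenclature, gave the setting for these genes. All 20 had a probe, 17 were bright enough to test, and none (0) passed limma at an adjusted p under 0.05, against 0.08% of all probes. The groups did not overlap at 1 of the 15 tested loci with 6 usable spots, against 24.2% of all such probes. The median log2 difference was 0.06, with 9 loci positive and 8 negative, and the values ran from -1.49 to 1.17.

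The locus without overlap was VIT_08s0032g00800. Its scaled log2 levels were -0.45, -0.84 and -0.13 in labelled overexpression replicates 1, 2 and 3, against -1.88, -1.77 and -1.29 in controls. The limma difference was 1.17 (SE 0.29, adjusted p 0.159), and it was 1.44 in scan 1, 0.69 in scan 2 and 1.0 without labelled overexpression replicate 3 (adjusted p 0.142). The next highest was VIT_06s0080g00810, with 0.87 (SE 0.43, adjusted p 0.416), which was 0.92 in scan 1, 1.50 in scan 2 and 1.24 without labelled overexpression replicate 3 (adjusted p 0.148). The lowest was VIT_02s0025g00240, with -1.49 (SE 0.64, adjusted p 0.353), whose value was -1.79 in scan 1, -0.11 in scan 2 and -0.92 without labelled overexpression replicate 3 (adjusted p 0.409). Next came VIT_04s0043g01010, with -0.50 (SE 0.29, adjusted p 0.482), where the fit drops labelled overexpression replicate 3, its spot being marked an outlier. The value of VIT_04s0043g01010 was -0.05 in scan 1 and -0.87 in scan 2. No enzyme name is given to these loci here, since no file or table used here annotates them.

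**Figure D4:**
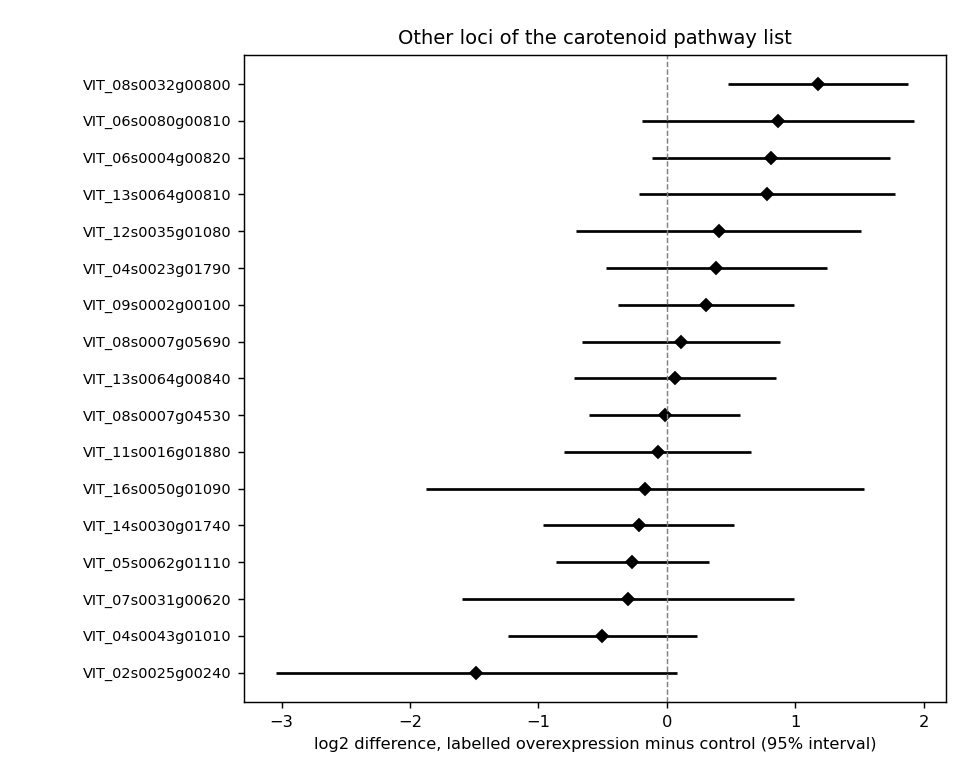
Log2 difference, labelled overexpression minus control, with its 95% interval from limma (horizontal axis) for the 17 tested loci of the pathway list, ordered by difference. The interval of VIT_08s0032g00800 (0.47 to 1.88) lies above 0, and that of every other locus shown includes 0.

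How the 8 genes respond to other processing is shown by 18 alternatives. CCD4b and NCED_19s passed the threshold in 1 of them, the authors' deposited table of scaled intensities (adjusted p 0.0121 and 0.00654), and neither passed in the other 17. In that table the column of labelled overexpression replicate 3 is, within 0.1% at 99.97% of its 23065 probes, a multiple of the mean of the scanner signals of labelled overexpression replicates 1 and 2. For NCED_19s the deposited table thus lists 2731, 2996 and 2903 in labelled overexpression replicates 1, 2 and 3, where the scanner signal of replicate 3 was 190. Without that column, CCD4b had a difference of 2.72 (adjusted p 0.0749) and NCED_19s one of -1.37 (adjusted p 0.0673). The sign of the difference held in all 18 alternatives for 6 genes, and turned in 2 for PSY2 and in 8 for ABA8H_02s.

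**Figure D5:**
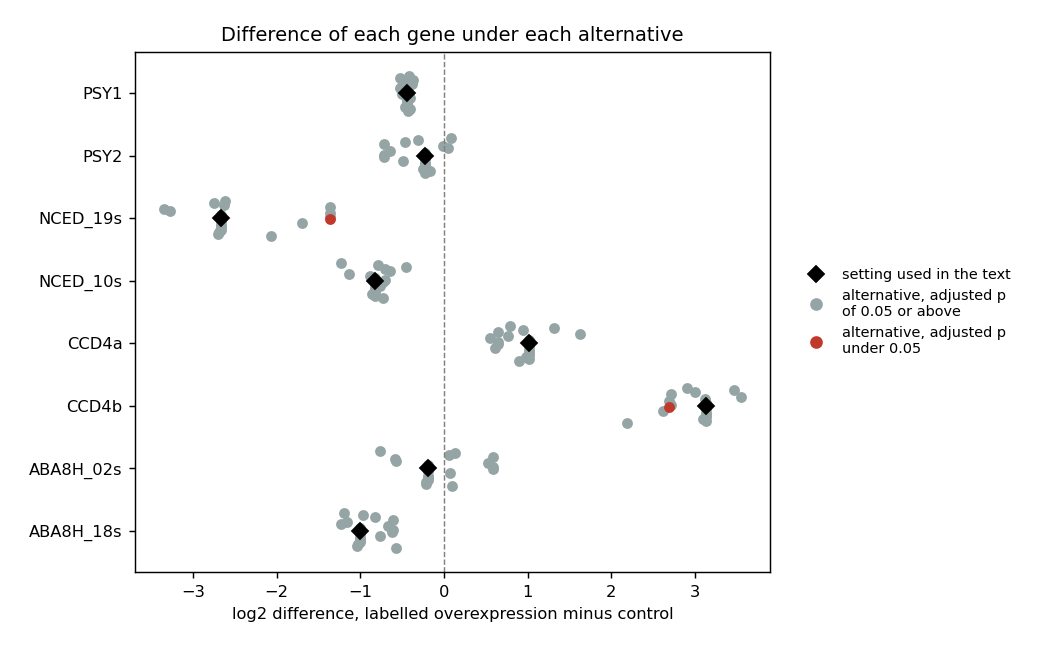
Log2 difference, labelled overexpression minus control, of each gene (horizontal axis) in the setting used in the text (diamond) and in each of 18 alternatives (circles, red where the limma adjusted p is under 0.05). The red points, 1 each for NCED_19s and CCD4b, both come from the deposited table, and only PSY2 and ABA8H_02s have points on both sides of 0.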

How the data were processed

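RNA of 6 leaf samples was labelled with Cy3 and hybridised to Agilent arrays. Per the file headers, the spot intensity comes from version 10.5.1.1 of Agilent Feature Extraction, corrected for background and for trends across the array surface, with 0 or 1 marks (other values) for spots well above background, saturated and outlier spots; no scaling between arrays was applied. A deposited table holds intensity on a linear scale for 23065 probes; its making is not stated. From the scanner files, the processed signal was divided by the 75th percentile of its array and put on a log2 scale. Control and outlier spots were left out, each group had to keep 2 usable spots or more, and a probe was tested if at least 1 group had it well above background throughout (23752 probes). Groups, taken from the titles, were set against each other in R 4.3.3 by lmFit and eBayes of limma 3.58.1, adjusted by Benjamini-Hochberg. The fit was tested on simulated data with independent normal noise and no array standing apart, so that test does not cover this feature of these data. The number of arrays limits precision.

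All 8 members were to be named whatever their values, with the loci past the threshold and the 2 largest differences in each direction of the pathway list. Members and lists were chosen with earlier results of these data known. Differences between related genes within an array were added after seeing the data. Likeness to other probes by correlation over arrays is not given, since 1 array stands apart.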

Additional observations from a re-analysis of the deposited data

How the results depend on the processing

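Settings gave these counts of all probes past the limma threshold, against 19: 0 with normexp (1536 at an unadjusted p under 0.05), 0 with no filter on dim probes (3404), 7 with a filter on all 6 arrays, 123 with array weights, 45 with scan as a block, 3114 in the deposited table and 94 in that table once the column of labelled overexpression replicate 3 is dropped (chosen after seeing the data). With the replicate block it was 0 (3096 at an unadjusted p under 0.05), and CCD4b had a difference of 3.13 (adjusted p 0.261). Deviations from the group means correlated at -0.01 to 0.25 between arrays of one number, within the range of other pairs (-0.33 to 0.28). With so few arrays, 1 of which stands apart, these values cannot decide whether the numbers pair the samples. Leaving out 1 array gave 0 to 123 probes: 0 without labelled overexpression replicate 1 or any control, 123 without labelled overexpression replicate 2 and 69 without replicate 3. Of the 8 genes, 2 passed in the deposited table and 0 in each other setting, and of the pathway list 4 passed there and 0 elsewhere. Leaving out 1 array gave 0 each time for both lists. The cause of these shifts was not tested, except that the deposited column of labelled overexpression replicate 3 follows from the other columns.

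ABA8H_02s reversed to 0.093 with normexp, 0.078 with array weights, 0.52 with scan as a block, 0.59 in the deposited table (and there also without the column of labelled overexpression replicate 3), 0.59 without labelled overexpression replicate 3, 0.06 without control replicate 1 and 0.13 without control replicate 2, with adjusted p between 0.446 and 0.994. PSY2 reversed to 0.05 without labelled overexpression replicate 1 and 0.085 without control replicate 3, and spanned -0.72 to 0.085 over the arrays left out; ABA8H_02s then ran from -0.77 to 0.59. PSY1 minus PSY2, at -0.21, reversed to 0.22 in the deposited table, 0.23 there with the column of labelled overexpression replicate 3 dropped, 0.23 without labelled overexpression replicate 3 and 0.091 without control replicate 1, and ran from -0.50 to 0.23 over the arrays left out. When 1 array was left out, CCD4b ran from 2.72 to 3.55 (adjusted p 0.0604 to 0.371), NCED_19s from -3.35 to -1.37 (0.0667 to 0.673), ABA8H_18s from -1.23 to -0.61 (0.256 to 0.622) PSY1 from -0.53 to -0.37 (0.268 to 0.749), CCD4a from 0.65 to 1.63 (0.120 to 0.829) and NCED_10s from -1.23 to -0.46 (0.389 to 0.754). Normexp, which compresses dim signals by its offset of 50, gave CCD4b 2.19 (adjusted p 0.491) and moved the median of all probes to 0.13; with no filter that median was 0.12. With 3 arrays per group and 1 spot per gene, 95% intervals of the 8 genes were 1.0 to 5.17 wide on the log2 scale.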

Other observations

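The locus numbered between CCD4a and CCD4b, VIT_02s0087g00920, was looked at after the values were seen. Its signal was 43.5, 23.1 and 108 in labelled overexpression replicates 1, 2 and 3, against 19.0, 23.9 and 18.4 in controls. Replicates 1 and 3 were above the controls and replicate 2 was not, the same arrays as for CCD4a. The probe of VIT_02s0087g00920 was dim, although marked well above background on all 6 arrays, while CCD4a had signals of 827 to 3391. Whether the 2 loci change together was not tested. The limma difference was 1.24 (SE 0.68, adjusted p 0.449). The locus numbered just after CCD4b, VIT_02s0087g00940, had a difference of 0.33 (SE 0.53, adjusted p 0.796). Its signal was 192 in labelled overexpression replicate 3 and 47.4 to 66.9 in the other labelled overexpression arrays, against 58.9 to 83.9 in controls. Of the loci looked at before CCD4a, VIT_02s0087g00880 was well above background, with a difference of -0.14 (SE 0.24, adjusted p 0.807). VIT_02s0087g00950, numbered after VIT_02s0087g00940, had a difference of -0.64 (SE 0.40, adjusted p 0.501).

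Of the 3 loci of the pathway list that were too dim to test, VIT_05s0051g00670 was well above background on 2 of 3 labelled overexpression arrays and on 1 of 3 control arrays. Its scaled log2 levels were -4.21, -4.68 and -7.39 in labelled overexpression replicates 1, 2 and 3, against -6.14, -6.22 and -6.63 in controls. Replicates 1 and 2 were above all controls and replicate 3 below them. This locus was 1 of the 4 of the list that passed the threshold in the authors' deposited table, whose column of labelled overexpression replicate 3 follows from those of replicates 1 and 2.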
